A study of Rattus norvegicus with 18 samples.

Results

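Transforming growth factor beta (TGF beta) signalling was examined through 9 genes of the pathway in rat liver: the ligands Tgfb1, Tgfb2 and Tgfb3, the receptors Tgfbr1 and Tgfbr2, the inhibitor Smad7, the latent binding proteins Ltbp1 and Ltbp2, and the activator Thbs1. The rule that picks them uses the gene symbol and no measured value, and they were taken from the 32623 genes of each deposited table. The list of symbols was nonetheless chosen with earlier results of these data known. Shares over all tested genes are therefore given below as a background and not as a test of the 9. Male Wistar rats formed 3 groups of 6, and the liver of each rat gave 1 RNA-seq library. Control rats were kept for 12 weeks on standard chow and normal water. NASH rats inhaled CCl4, a hepatotoxin, and took oral phenobarbital for 6 weeks, followed by 4 weeks of a diet high in fat and cholesterol (HFCD). The NASH-CH group, that with cirrhosis, received 8 weeks of CCl4 and phenobarbital and then 16 weeks in which HFCD was given together with both agents. The methods describe this schedule, whereas the series' design text gives both disease groups CCl4 and the diet in combination. Control rats were thus kept for another duration than either model, so treatment and time on protocol cannot be told apart, and the ages of the animals are not given in the sources used here.

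TGF beta is the best known profibrogenic cytokine of the liver. Its ligands are secreted as latent complexes that latent TGF beta binding proteins anchor in the extracellular matrix, and thrombospondin 1 or integrins release the active ligand. Active ligand binds the type II receptor, which recruits and phosphorylates the type I receptor. The type I receptor then phosphorylates Smad2 and Smad3, which enter the nucleus with Smad4 and switch on genes of matrix production, and also Smad7, which inhibits the receptor. In liver, hepatic stellate cells (HSCs) answer this signal by turning into collagen-producing myofibroblasts.

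Expected counts summed to 19498534 to 27174015 per control rat, 20827770 to 29491947 per NASH rat and 44680344 to 60117822 per NASH-CH rat. NASH-CH libraries were therefore deeper than all others, and small non-coding RNA genes took 11.09 to 13.14% of their counts, against 16.08 to 22.35% in control and 14.74 to 17.29% in NASH libraries. Levels are given below as CPM, the counts of a gene relative to the library total, after scaling by the method known as TMM, which offsets differences in composition between libraries. They are not divided by gene length, so they are compared between rats and not between genes. Transcripts were measured in whole liver, where fewer cells of a type and less RNA per cell cannot be told apart. All 9 genes passed the filter on low counts in all 18 rats. At the lower end of depth, Ltbp2 rested on 12 to 38 counts per control rat, Tgfb2 on 19 to 35 and Tgfb1 on 23 to 102, so that counting error was largest for these genes.

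In NASH rats, no gene of the 9 differed from control at an adjusted p under 0.05 (limma-voom). The count at an unadjusted p under 0.05 was 2 genes (Tgfbr2 and Ltbp1), near the 21.5% of all tested genes at that level. The quasi-likelihood test of edgeR and DESeq2 also called 0 of the 9, while 3 of the 12 alternative settings called 1 (Tgfbr2 or Ltbp1). Among all 12904 genes tested, 3.12% were called after adjustment. In NASH-CH rats, 3 of the 9 rose above control, namely Ltbp1, Ltbp2 and Thbs1, where 8.38% of all tested genes were called higher, 8.60% lower and 17.0% in either direction. Against NASH rats the genes called higher in NASH-CH were again these 3, beside 1.81% of all tested genes called higher and 4.20% in either direction. Both comparisons use the NASH-CH livers, so they are not independent of each other. The median log2 fold change of the 9 genes was 0.17 in NASH and 0.51 in NASH-CH against control, and 0.34 in NASH-CH against NASH, beside medians of 0.0072, 0.013 and 0.0068 over all tested genes.

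**Figure D1:**
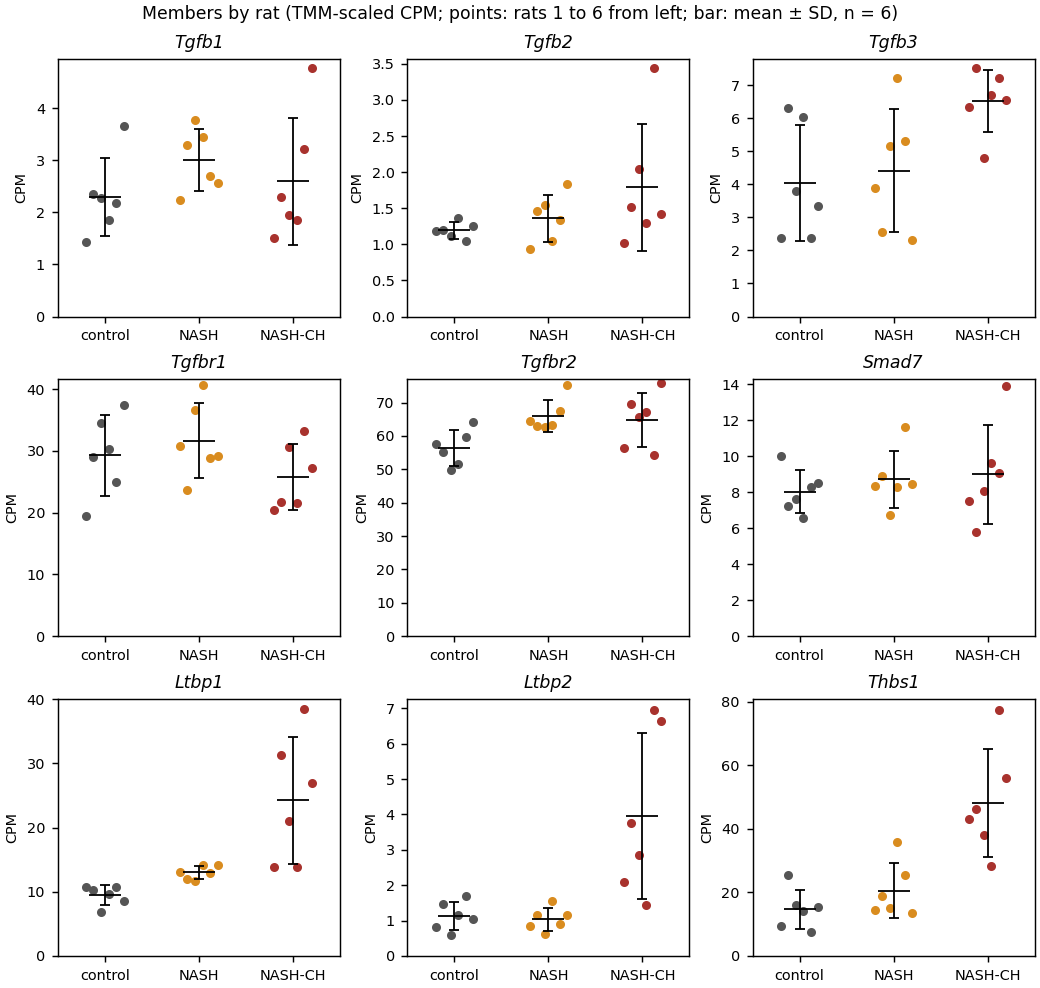
Level of each of the 9 genes in every rat (vertical axes, TMM-scaled CPM, each starting at 0) in control, NASH and NASH-CH livers. Points are rats 1 to 6 from left to right, and bars show mean ± SD (n = 6). Ltbp1 and Thbs1 in NASH-CH rats lie above all control rats, while the ranges of all the other genes overlap between all groups.

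Tgfb1 encodes the ligand most often linked to liver fibrosis. In control rats it ran from 1.43 to 3.66 CPM with a median of 2.23, in NASH rats from 2.23 to 3.78 with a median of 3.0, and in NASH-CH rats from 1.5 to 4.77 with a median of 2.11. The groups overlapped, and the highest level belonged to NASH-CH rat 6, while 3 of the 6 NASH-CH rats lay below every NASH rat. The log2 fold change was 0.37 ± 0.29 (SE) in NASH against control (adjusted p = 0.503) and 0.094 ± 0.28 in NASH-CH against control (adjusted p = 0.843). The 95% interval of the NASH-CH fold ran from 0.715 to 1.59, so a change of that size in either direction was not resolved.

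Tgfb2, a second ligand, varied little among control rats, from 1.04 to 1.36 CPM (median 1.19). It ran from 0.936 to 1.83 CPM (median 1.4) in NASH rats and from 1.02 to 3.44 CPM (median 1.47) in NASH-CH rats. NASH-CH rat 5 stood highest, and 4 of the 6 NASH-CH rats exceeded all controls while 1 lay below them. The log2 fold change in NASH-CH against control, 0.51 ± 0.29 (SE), did not pass the test (adjusted p = 0.246).

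Tgfb3 showed the highest fold change of the ligands in NASH-CH. Controls ran from 2.37 to 6.32 CPM (median 3.56), NASH rats from 2.31 to 7.21 CPM (median 4.52) and NASH-CH rats from 4.8 to 7.53 CPM (median 6.63). Of the NASH-CH rats 5 lay above all controls, and the SD narrowed from 1.75 CPM in controls to 0.951 CPM in NASH-CH rats. The log2 fold change of 0.74 ± 0.26 (SE) against control missed the threshold (adjusted p = 0.063). Leaving out control rat 2 (0.90, adjusted p = 0.0335), NASH rat 4 (0.74, 0.0486), NASH rat 6 (0.73, 0.0493) or NASH-CH rat 3 (0.82, 0.0457) brought it under the threshold, as did omitting the filter on low counts (0.74, 0.0425) and scaling by library size only (1.01, 0.0224), and over all 18 fits that left out 1 rat its adjusted p ran from 0.0335 to 0.155.

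Tgfbr1 is the type I receptor, the kinase that phosphorylates Smads. Its level ran from 19.4 to 37.4 CPM in control (median 29.6), from 23.6 to 40.6 CPM in NASH (median 29.9) and from 20.4 to 33.2 CPM in NASH-CH rats (median 24.5). All NASH-CH values lay inside the control range. Against control the log2 difference was 0.12 ± 0.16 (SE, adjusted p = 0.727) for NASH rats and -0.19 ± 0.17 (adjusted p = 0.463) for NASH-CH rats, and the second value became 0.078 when only library size was used for scaling.

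Tgfbr2 is the type II receptor, which binds ligand first. Control livers held 49.8 to 64.1 CPM (median 56.4), NASH livers 62.8 to 75.3 CPM (median 63.9) and NASH-CH livers 54.2 to 75.8 CPM (median 66.4). Above every control stood 3 NASH rats and 4 NASH-CH rats, and the ranges overlapped in both comparisons. The log2 fold change was small with a narrow error, 0.23 ± 0.088 (SE, adjusted p = 0.142) for NASH and 0.20 ± 0.092 for NASH-CH rats (adjusted p = 0.14). Upper ends of the 95% intervals were 1.33-fold in NASH and 1.31-fold in NASH-CH.

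Smad7, the inhibitory Smad that the pathway itself induces, ran from 6.57 to 10.0 CPM in control (median 7.95), from 6.71 to 11.6 CPM in NASH (median 8.4) and from 5.81 to 13.9 CPM in NASH-CH rats (median 8.57). Medians lay close together, and the lowest and the highest rat of the whole series both belonged to the NASH-CH group (rats 2 and 6). Against control, NASH rats differed by 0.12 ± 0.18 (SE, log2, adjusted p = 0.745) and NASH-CH rats by 0.13 ± 0.18 (adjusted p = 0.638). The interval of the NASH-CH fold, 0.85 to 1.42, covers both a decrease and an increase.

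Ltbp1 encodes a protein that binds the latent complex and tethers it to matrix fibres. Control rats ran from 6.81 to 10.8 CPM (median 9.94), NASH rats from 11.7 to 14.2 CPM (median 13.0) and NASH-CH rats from 13.8 to 38.5 CPM (median 24.0). Every NASH rat and every NASH-CH rat lay above every control rat. Such a separation held for 3.16% of all tested genes in NASH and for 7.11% in NASH-CH, and among the 9 genes for Ltbp1 alone in NASH and for Ltbp1 and Thbs1 in NASH-CH. Between NASH-CH and NASH rats 0 of the 9 were separated in this way, beside 3.46% of all tested genes. Against control, Ltbp1 rose 2.4-fold in NASH-CH (95% interval 1.74 to 3.29, log2 fold change 1.26 ± 0.22 (SE), adjusted p = 0.000764). The change in NASH, 0.48 ± 0.22 on the log2 scale, did not pass in the fit of all 18 rats (adjusted p = 0.223), though it passed when NASH and control rats were fitted alone (0.48, adjusted p = 0.0327). NASH-CH rats 1 and 4 lay inside the NASH range, at 13.9 and 13.8 CPM, whereas the other 4 lay above all NASH rats and ran from 21.0 to 38.5 CPM. In NASH-CH against NASH the log2 fold change was 0.78 ± 0.21 (adjusted p = 0.0399).

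Ltbp2, a relative of Ltbp1 that sits on elastic fibres and does not bind latent TGF beta itself, ran from 0.606 to 1.69 CPM in control (median 1.1) and from 0.617 to 1.55 CPM in NASH rats (median 1.02). In NASH-CH rats it ran from 1.44 to 6.96 CPM (median 3.31). NASH lay wholly inside the control range, and 5 of the 6 NASH-CH rats lay above all control rats. Ltbp2 rose 3.15-fold in NASH-CH against control (95% interval 1.58 to 6.28, log2 fold change 1.66 ± 0.47 (SE), adjusted p = 0.023) and 3.45-fold against NASH (1.76 to 6.75, 1.79 ± 0.46, adjusted p = 0.0339). The rise against control lost its call without control rat 3 (1.5, adjusted p = 0.057) and when NASH-CH and control rats were fitted alone (1.66, adjusted p = 0.0627).

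Thbs1 encodes thrombospondin 1, a matrix protein of platelets, endothelium and myofibroblasts that activates latent TGF beta. It ran from 7.39 to 25.4 CPM in control (median 14.7), from 13.6 to 35.7 CPM in NASH (median 16.9) and from 28.3 to 77.5 CPM in NASH-CH rats (median 44.6). All NASH-CH rats exceeded all controls, and 5 of 6 exceeded all NASH rats. The rise against control was 3.3-fold (95% interval 2.13 to 5.1, log2 fold change 1.72 ± 0.3 (SE), adjusted p = 0.000819), and against NASH it was 2.36-fold (1.55 to 3.61, 1.24 ± 0.29, adjusted p = 0.0196). Its log2 fold change in NASH against control was 0.48 ± 0.29 (adjusted p = 0.353). The upper end of that interval was 2.13-fold.

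**Figure D2:**
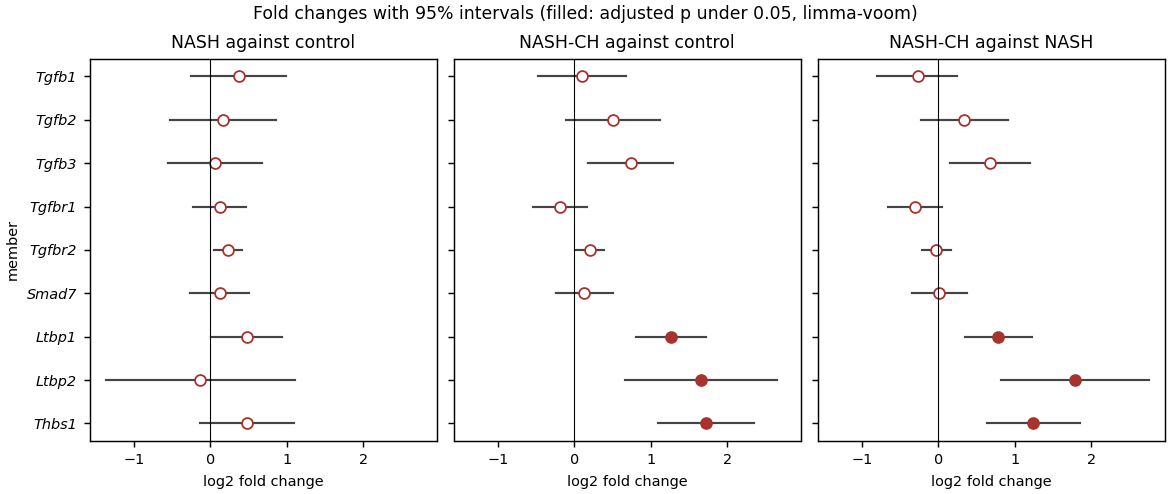
Log2 fold change of each of the 9 genes with its 95% interval in NASH against control, NASH-CH against control and NASH-CH against NASH. Filled points had an adjusted p under 0.05 in limma-voom: 0, 3 and 3 genes in that order, with Ltbp1, Ltbp2 and Thbs1 to the right of 0 in both comparisons of NASH-CH.

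Calls in NASH-CH against NASH depended on single rats. Over 18 fits that each left out 1 rat, Ltbp1 lost its call in 13, with adjusted p up to 0.0978. The fits that kept it were those without control rat 2, 3 or 6 and without NASH-CH rat 1 or 4. Ltbp2 lost its call in 7 fits, those without any of the 6 NASH rats or without NASH-CH rat 2 (adjusted p up to 0.0896), and Thbs1 in 2, without NASH rat 3 (1.17, adjusted p = 0.052) or rat 6 (1.14, 0.0515). Of the 9 genes, 0 stayed called without NASH rat 3 or rat 6, and 1 without NASH rat 1, 2, 4 or 5 or without NASH-CH rat 2. Against control, Ltbp1 and Thbs1 kept their calls in all 18 such fits, with log2 fold changes from 1.11 to 1.40 and from 1.54 to 1.91.

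NASH-CH rats 5 and 6 carried much of the upper range. Rat 5 was highest in its group for 5 of the 9 genes (Tgfb2, Tgfbr1, Ltbp1, Ltbp2 and Thbs1) and rat 6 for 3 (Tgfb1, Tgfbr2 and Smad7). Without both rats, a choice made after their values were seen, log2 fold changes in NASH-CH against control were 1.01 for Ltbp1 (adjusted p = 0.00323), 1.11 for Ltbp2 (0.0247) and 1.47 for Thbs1 (0.00532). Against NASH, without both rats Ltbp2 kept its call (1.24, adjusted p = 0.0256), and Ltbp1 (0.54, 0.146) and Thbs1 (0.99, 0.0859) lost theirs.

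The 250 bases upstream of the RefSeq start are shown for Ltbp1, Ltbp2 and Thbs1 because these were the genes that rose together in NASH-CH. They come from GRCr8, a newer assembly than the Rnor_6.0 of the counts, at chr6:26177302-26177551 (minus strand), chr6:110257299-110257548 (minus strand) and chr3:125510000-125510249 (plus strand). Each lies in the upstream flank of its gene, outside the transcribed part, and is written 5′ to 3′ on the strand of its gene. Capitals mark CAGAC, the core of the Smad binding element, and GGAATG, the core of the element bound by TEAD factors, on either strand.
Ltbp1: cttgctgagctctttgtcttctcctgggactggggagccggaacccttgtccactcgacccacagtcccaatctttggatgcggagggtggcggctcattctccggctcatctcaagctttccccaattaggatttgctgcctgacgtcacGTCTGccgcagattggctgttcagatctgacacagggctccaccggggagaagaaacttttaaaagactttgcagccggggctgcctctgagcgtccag
Ltbp2: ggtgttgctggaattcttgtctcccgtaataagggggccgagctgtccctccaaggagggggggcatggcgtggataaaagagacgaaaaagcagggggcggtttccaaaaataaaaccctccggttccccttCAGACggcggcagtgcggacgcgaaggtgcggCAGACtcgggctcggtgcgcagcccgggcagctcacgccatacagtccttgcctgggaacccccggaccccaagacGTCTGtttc
Thbs1: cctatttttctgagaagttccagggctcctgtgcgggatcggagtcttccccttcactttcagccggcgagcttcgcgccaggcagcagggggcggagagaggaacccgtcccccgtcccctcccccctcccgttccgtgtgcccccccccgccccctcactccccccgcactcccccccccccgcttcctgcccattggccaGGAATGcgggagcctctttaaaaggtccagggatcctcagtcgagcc
CAGAC was found 1 time upstream of Ltbp1, 3 times upstream of Ltbp2 and in none of the other 7 windows, that is in 2 of 9, where 42.9% of 33469 RefSeq promoters of the same length hold it. GGAATG was found upstream of Thbs1 alone, with a share of 12.1% among all promoters. GGGCGG, the GC box, was found in 5 of 9 windows (30.5% of all promoters). GTCTAGAC (0.173% of all promoters), TGANTCA (6.34%), the CArG box (1.5%) and TATAAA (12.9%) were found in 0 of the 9. All motifs were searched on both strands, and a match of so few letters is a description of the window.

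Ratios of a pair of counts within a rat were then compared, since they do not depend on library scaling. For Ltbp2 over Ltbp1 the log2 ratio ran from -3.68 to -2.64 in control (median -3.03), from -4.2 to -3.18 in NASH (median -3.71) and from -3.25 to -2.02 in NASH-CH rats (median -2.81). The NASH median was the lowest, with 3 NASH rats below all controls, and 5 of the 6 NASH-CH rats lay above all NASH rats. The difference of NASH-CH from NASH was 0.94 ± 0.24 (SE) on the log2 scale (two-sided exact permutation p = 0.00433, adjusted p = 0.0649 over the 15 ratio tests). NASH lay below control by -0.57 ± 0.22 (exact permutation p = 0.0325, adjusted p = 0.163), and without NASH rat 1, 3 or 5 or control rat 2, 4, 5 or 6 its unadjusted p rose as far as 0.0628.

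For Tgfb3 over Tgfb1 the log2 ratio ran from -0.13 to 1.69 in control (median 0.72), from -0.36 to 1.06 in NASH (median 0.62) and from 0.46 to 2.07 in NASH-CH rats (median 1.51). Again 5 of the 6 NASH-CH rats stood above all NASH rats, with a difference of 0.97 ± 0.34 (SE, exact permutation p = 0.0216, adjusted p = 0.162). The ratios of Tgfb2 to Tgfb1, of Tgfbr1 to Tgfbr2 and of Smad7 to Tgfbr1 had unadjusted p-values of 0.0974 or more between any groups (exact permutation). None of the 15 ratio tests passed after adjustment.

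**Figure D3:**
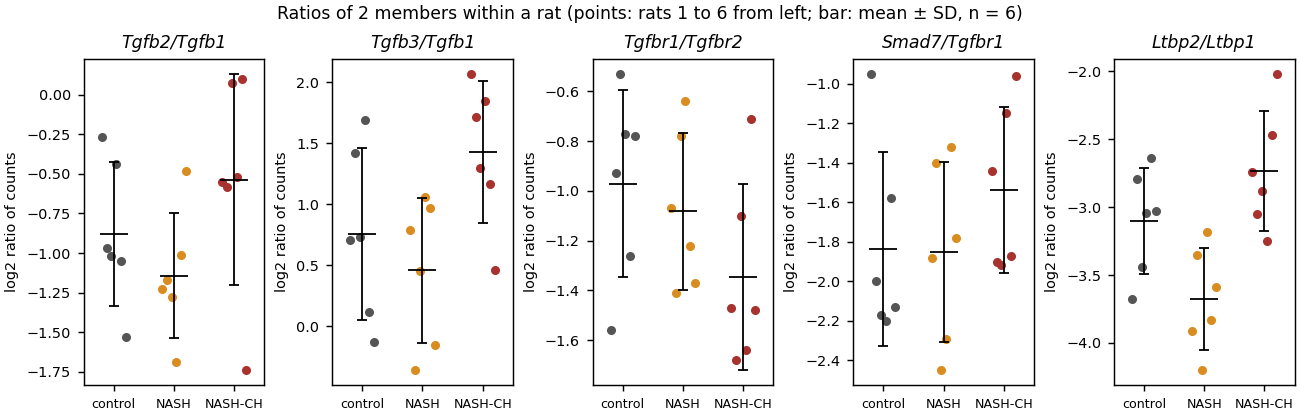
Log2 ratio of the counts of a pair of genes within each rat (vertical axes, each with its own range) in control, NASH and NASH-CH livers. Points are rats 1 to 6 from left to right and bars show mean ± SD (n = 6). NASH rats have the lowest median of Ltbp2 over Ltbp1 (-3.71), and NASH-CH rats the highest median of Tgfb3 over Tgfb1 (1.51).

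Rats of a group also varied together in some of the 9 genes. After the group mean was subtracted from log2 CPM, Ltbp1 and Ltbp2 had the highest correlation of the 36 pairs over the 18 rats (Pearson's r = 0.82, Spearman's rho = 0.78), and r was 0.78 without NASH-CH rat 5. Tgfb3 and Thbs1 followed (r = 0.68, rho = 0.65). Tgfb3 and Tgfbr2 had the lowest value (r = -0.35). Values of a pair come from the same libraries and share their depth and scaling, so these correlations are descriptions.

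**Figure D4:**
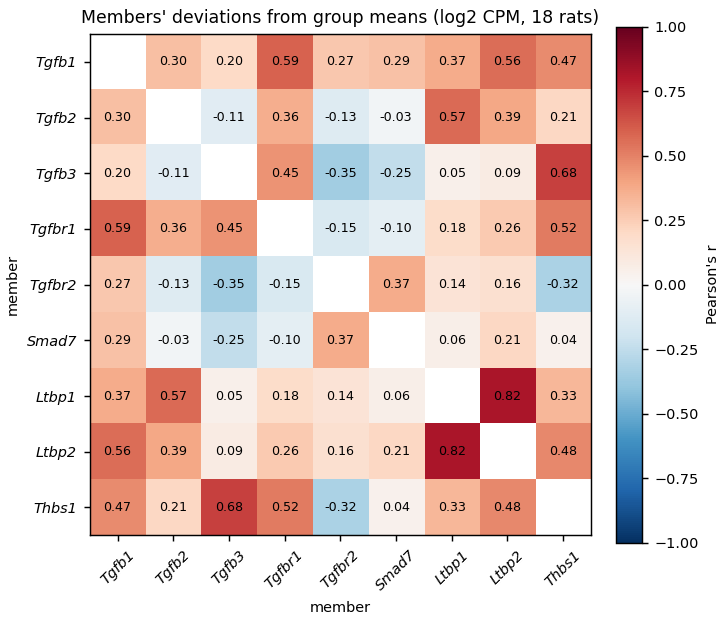
Pearson's r between the deviations of each pair of the 9 genes from their group means (log2 CPM, 18 rats), on a scale from -1 (blue) to 1 (red). Ltbp1 with Ltbp2 has the highest value (0.82) and Tgfb3 with Tgfbr2 the lowest (-0.35).

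Among 5209 other genes with at least 10 CPM on average, those whose deviations were most like Ltbp1 were Reep5 (r = 0.90) and Adamtsl2 (r = 0.88). Within groups Reep5 gave r = 0.83 among control rats, 0.077 among NASH and 0.96 among NASH-CH rats. Adamtsl2 gave 0.80, 0.37 and 0.98 in the same order, and it rose with a log2 fold change of 2.39 in NASH-CH against control (adjusted p = 2.16e-06). For Thbs1 they were Slain2 and Ednrb, an endothelin receptor (r = 0.87 for each), and Ednrb rose by 1.46 on the log2 scale in NASH-CH (adjusted p = 0.00147). For Ltbp2 they were Lmf2 (r = 0.81) and Ywhaq (r = 0.77), whose log2 fold changes in NASH-CH were -0.011 and 0.059 (adjusted p of 0.956 and 0.809).

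For the ligands, Tgfb1 was closest to Sh3d19 (r = 0.91) and Rragc (r = 0.89), Tgfb2 to Cela1 (r = 0.81) and Tceal8 (r = 0.79), and Tgfb3 to Appbp2 (r = 0.80) and Cipc (r = 0.75). Cela1 fell by 1.72 on the log2 scale in NASH-CH against control (adjusted p = 0.00019), while its r with Tgfb2 was -0.28 among control rats alone. For Tceal8 that value was -0.13. The r of Tgfb3 among control, NASH and NASH-CH rats was 0.78, 0.93 and 0.3 with Appbp2, and 0.85, 0.87 and 0.086 with Cipc. The receptors were closest to Pawr (r = 0.93) and Fnip1 (r = 0.90) for Tgfbr1 and to Erbb3 (r = 0.90) and Paqr7 (r = 0.84) for Tgfbr2. Smad7 was closest to Syvn1 and Upf1 (r = 0.73 for each). In this paragraph and the one before, genes were picked for the highest r among 5209 over 18 rats. How high an r such a search gives by chance was not tested, so these values are descriptions.

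Other genes of the pathway were read from 5 lists, and 0 to 4 genes of a list were called in any comparison. Over all tested genes, 8.38% were called higher and 8.60% lower in NASH-CH against control, with a median log2 fold change of 0.013. Calls in either direction took 3.12% in NASH against control and 4.20% in NASH-CH against NASH. Of 11 genes of latent complexes and their activation, 1 rose in NASH-CH against control, namely Itgb8, an integrin subunit that activates latent TGF beta. It ran from 0.154 to 0.545 CPM in control and from 0.48 to 2.38 CPM in NASH-CH rats, on as few as 4 counts in a control rat (log2 fold change 1.5 ± 0.45 (SE), adjusted p = 0.0276). Its medians of 0.386 CPM in control and 0.359 CPM in NASH lay near the 0.369 CPM of the filter on low counts. All NASH-CH rats lay above it, so the entry of Itgb8 into the test leaned on NASH-CH, which favours a rise there. The call was lost without control rat 1 (1.44, adjusted p = 0.0591), 2 (1.27, 0.0674) or 4 (1.55, 0.0511), and when these groups were fitted alone (1.5, 0.0656). The epithelial integrin Itgb6 was not called and differed by 1.57 ± 0.72 on the log2 scale (adjusted p = 0.141). Its NASH-CH median was 0.816 CPM, whereas its highest NASH-CH rat reached 6.29 CPM. The median of the list was 0.31 in NASH-CH and 0.19 in NASH against control.

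Of 10 tested receptors of the superfamily beyond Tgfbr1 and Tgfbr2, 1 was called in NASH, beside 3.12% of all tested genes. That was Bmpr2, the type II receptor for bone morphogenetic proteins. It ran from 9.29 to 15.5 CPM in control and from 14.2 to 20.5 CPM in NASH rats, which overlap (log2 fold change 0.5 ± 0.13 (SE), adjusted p = 0.0418). In 13 of the 18 fits without 1 rat it lost the call, and also when these groups were fitted alone (adjusted p = 0.054) and without the filter on low counts (0.0604). It kept it without control rat 2 or 6, NASH rat 6 or NASH-CH rat 5 or 6, and its adjusted p ran from 0.0173 to 0.109. No receptor of the list was called in NASH-CH against control, where the list's median was 0.16.

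Of 19 Smads and their regulators, 2 rose in NASH-CH against control and 0 fell, beside 8.38% of all tested genes called higher and 8.60% lower. Pmepa1, a target of the pathway that restrains Smad activation, ran from 0.249 to 0.744 CPM in control and from 0.761 to 2.14 CPM in NASH-CH rats (log2 fold change 1.62 ± 0.36 (SE), adjusted p = 0.00571). These ranges did not overlap, as for 7.11% of all tested genes, but they nearly met. Pmepa1 rested on only 4 to 18 counts per control rat. Zfyve9, the adaptor that brings Smad2 and Smad3 to the receptor, rose by 0.45 ± 0.14 on the log2 scale (adjusted p = 0.0331). Zfyve9 lost its call in 7 of the 18 fits, without control rat 1, 3, 4 or 5 or NASH-CH rat 2, 4 or 6 (adjusted p up to 0.0776), and without NASH-CH rats 5 and 6 (0.34, 0.116). Smad6, the inhibitory Smad of the bone morphogenetic protein branch, was lower in NASH-CH than in NASH (-0.89 ± 0.22, adjusted p = 0.0232) and lost that call without NASH rat 1, 2 or 6 (adjusted p up to 0.0546), with those groups fitted alone (0.0787) and after thinning (0.0687). It is named because it was the list's single call there, seen after its values.

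Of 21 tested target genes of TGF beta, 3 rose in NASH-CH against control, 0 fell and 18 did not pass, with a list median of 0.22. Over all tested genes, 8.38% were called higher and 8.60% lower, with a median of 0.013. Ctgf, the matricellular connective tissue growth factor, ran from 2.37 to 6.36 CPM in control and from 6.62 to 30.9 CPM in NASH-CH rats (log2 fold change 1.78 ± 0.44 (SE), adjusted p = 0.0106). All NASH-CH rats lay above all controls for Ctgf, where 7.11% of all tested genes were separated in either direction.

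Tagln, a smooth muscle and myofibroblast actin-binding protein, ran from 3.66 to 6.35 CPM in control, from 2.31 to 4.5 CPM in NASH and from 5.98 to 13.7 CPM in NASH-CH rats. It rose by 0.97 ± 0.21 (SE, log2) against control (adjusted p = 0.00444) and by 1.3 ± 0.21 against NASH (adjusted p = 0.000818). Col1a1, a chain of type I collagen, ran from 6.45 to 10.4 CPM in control and from 9.54 to 34.4 CPM in NASH-CH rats (1.02 ± 0.28, adjusted p = 0.0186), and without NASH-CH rats 5 and 6 its log2 fold change was 0.66 (adjusted p = 0.0745).

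Against NASH, the target genes called in NASH-CH were Tagln, Col1a1 (1.01, adjusted p = 0.0451) and Col3a1 (0.49, adjusted p = 0.0457) as higher and Adam12 (-1.16, adjusted p = 0.0144) as lower. Col3a1 and Adam12 were named after their values were seen. Col1a1 and Col3a1 each lost this call in 14 of the 18 fits that left out 1 rat, and under 5 and 6 of the 12 other alternatives (adjusted p up to 0.141 and 0.154). Col1a1 kept it without NASH rat 5 or NASH-CH rat 1, 3 or 4, and Col3a1 without control rat 1, NASH rat 6 or NASH-CH rat 1 or 4. Acta2, which encodes α-SMA, had a log2 fold change of 0.87 ± 0.33 in NASH-CH against control (adjusted p = 0.0758), and 0 of the 21 targets were called in NASH against control.

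Of 17 tested further ligands and extracellular traps, 2 rose in NASH-CH against control, beside 8.38% of all tested genes. Both are antagonists of bone morphogenetic proteins. Grem1 was almost undetected in control livers, with 0 to 4 counts per rat and 10 in all, against 19 to 177 counts per NASH-CH rat (0.415 to 2.3 CPM), and it was higher in every NASH-CH rat than in every other rat. Its log2 fold change against control was 3.67 ± 0.7 (SE, adjusted p = 0.00168), a size that depends on how so few counts are modelled. Control rats reached at most 0.143 CPM and NASH rats 0.257 CPM, below the 0.369 CPM that the filter on low counts asks for. Grem1 was thus tested only through its level in NASH-CH rats, which favours a rise there, and its calls are a description. Chrd ran from 4.54 to 7.77 CPM in control and from 6.7 to 11.7 CPM in NASH-CH rats (0.62 ± 0.15, adjusted p = 0.00991). In NASH-CH against NASH, Grem1 was higher (2.8 ± 0.58, adjusted p = 0.00806). Bmp2, named after its values were seen, was lower (-0.68 ± 0.19, adjusted p = 0.0451) and lost its call in 11 of the 18 fits, keeping it without control rat 1, 3, 4 or 6, NASH rat 3 or NASH-CH rat 4 or 6. It also lost the call under 7 of the 12 other alternatives (adjusted p up to 0.122).

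**Figure D5:**
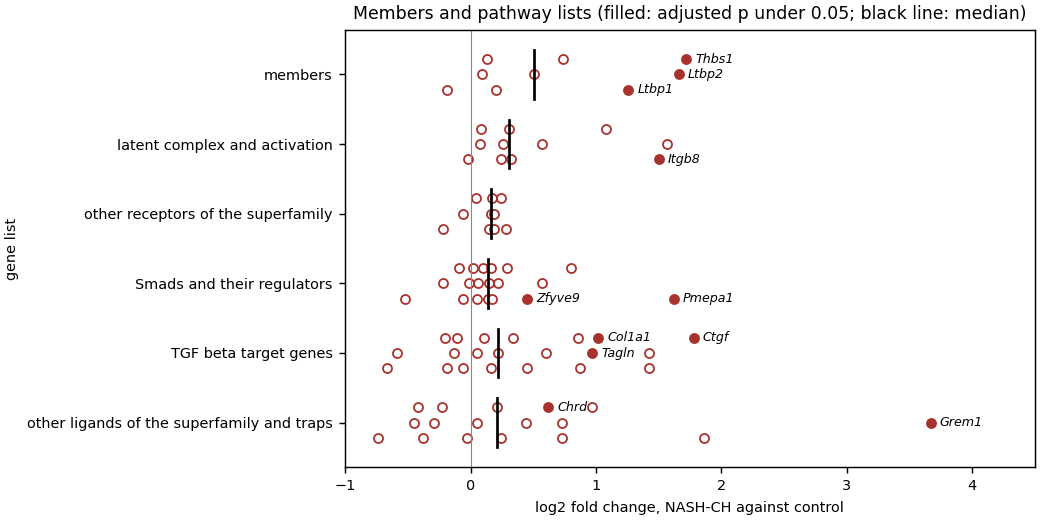
Log2 fold change in NASH-CH against control (horizontal axis) of the 9 genes (row "members") and of the tested genes of 5 pathway lists. Filled, named points had an adjusted p under 0.05 and black lines mark each median, from 0.51 for the 9 genes to 0.14 for the Smads and their regulators.

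Markers of the cell types of the liver were read beside these values. Of all tested genes, 8.38% were called higher and 8.60% lower in NASH-CH than in control, and 1.58% and 1.54% in NASH. The 7 hepatocyte markers, led by albumin, summed to 126201 to 183698 CPM in control, 90980 to 147742 in NASH and 83553 to 138514 in NASH-CH rats, so hepatocyte transcripts were abundant in every library. Alb (log2 fold change -0.61), Apoa1 (-0.66) and Ttr (-0.76) were called lower in NASH-CH than in control, and the other 4 were not called. In NASH, 1 was called lower (Apoa1, -0.82). The 8 stellate cell and myofibroblast markers summed to 125 to 164 CPM in control, 145 to 210 in NASH and 124 to 185 in NASH-CH rats. These ranges overlap, but within the list Des, Rgs5 and Col1a1 were called higher and Lrat and Colec11 lower in NASH-CH than in control. In NASH, Rgs5 (log2 fold change 1.5) was already called higher and Lrat (-0.59) lower than in control. The 6 cholangiocyte markers summed to 7.92 to 10.4 CPM in control, 6.13 to 12.3 in NASH and 6.29 to 41.3 in NASH-CH rats, where 4 rats exceeded all controls and rat 5 was highest. Of the 4 cholangiocyte markers that were tested, 0 were called against control, in NASH-CH or in NASH. The 7 macrophage markers summed to 212 to 401 CPM in control, 165 to 244 in NASH and 141 to 215 in NASH-CH rats, and 5 of them were called lower in NASH-CH than in control and 1 (Marco) in NASH.

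The 6 endothelial markers that were found summed to 187 to 262 CPM in control, 244 to 277 in NASH and 155 to 269 in NASH-CH rats. Of these 6, Vwf, the von Willebrand factor of endothelium and platelets, was called higher in NASH-CH than in control (log2 fold change 1.13, adjusted p = 0.00245) and the other 5 were not called. The platelet markers, 6 gene rows of which 2 were tested, summed to 6.2 to 11.7 CPM in control, 6.26 to 8.78 in NASH and 5.31 to 8.1 in NASH-CH rats. Itga2b made up most of that sum and was lower in NASH-CH than in control (-0.66, adjusted p = 0.0118), whereas Pf4, a chemokine of platelets, was higher in NASH-CH than in control (2.73, adjusted p = 0.00264) and than in NASH (1.82, adjusted p = 0.0307). Pf4 rested on 24 to 107 counts per NASH-CH rat and on 1 to 9 per control rat. Its medians of 0.11 CPM in control and 0.272 CPM in NASH lay below the 0.369 CPM of the filter on low counts. All NASH-CH rats lay above it, from 0.524 CPM, so Pf4 entered the test through NASH-CH, which favours a rise there. The 6 lymphocyte markers, with 1 tested, summed to 0.249 to 1.51, 0.713 to 1.59 and 0.808 to 2.62 CPM in the same order. No marker was at 0 in every rat of a group. The part of the cell type markers and of depth in the rise of Ltbp1, Ltbp2 and Thbs1 was not tested by a fit with them as terms. With all libraries thinned to the smallest total, and with small non-coding RNA genes removed, these 3 genes were still called higher in NASH-CH than in control.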

How the data were processed

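RNA-seq covered the livers of 18 rats, 6 in each group, with 1 library and 1 deposited table per rat, and replicates are separate rats. The authors trimmed adapters, aligned reads to Rnor_6.0 by STAR 2-pass and deposited RSEM expected counts of Ensembl release 95 genes, not normalized. The submitters' processing notes name FastQC, Trim Galore, STAR, RSEM and limma, with versions not given in the sources used here. The methods name the miRNeasy kit and the labels RNAqueous-Micro with a stranded TruSeq mRNA kit.

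Expected counts were rounded, filtered with filterByExpr (12904 genes kept), scaled by TMM (edgeR 4.0.16) and fitted by voom in limma 3.58.1 (R 4.3.3), with 1 fit of 18 rats and a mean per group. Benjamini-Hochberg adjustment ran over all tested genes at a threshold of 0.05. Scripts used Python 3.11.15, and ratios used a pseudocount of 0.5 and two-sided exact permutation tests, whose smallest p is 0.00216. The fits were tested on simulated data. Totals give counting error only, and 6 rats per group limit precision.

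The members, gene lists and tests were chosen with earlier results of these data known. Named genes were the 9 members, called genes of each list (at most 4 per direction by size in NASH-CH against control), the 2 genes most like each member, and those said to be named after their values were seen. Itgb6 and Acta2 were named outside this rule, and neither was called. Col1a2 and Pecam1 were not found by symbol and Postn was not tested. Results for 1 gene of the target list are not reported here, and the list was summarised without it. Alternatives were DESeq2 1.42.0 or its size factors, the quasi-likelihood test of edgeR, library size only, other filters, 2 groups fitted alone, quality weights, thinning, removal of small non-coding RNA genes, a replicate block and leaving out rats. Promoter sequences came from RefSeq (GRCr8), where 9 of 9 members matched by symbol.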

Additional observations from a re-analysis of the deposited data

Results flagged for a closer look

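In 42 groups of 6 rats examined (levels of the 9 genes and the 5 ratios), 2 had a rat whose gap to the others was large against the range of its group, where chance gives about 1 in 20. NASH rat 6 had the highest Tgfbr2 level of its group, 75.3 CPM, while the other NASH rats ran from 62.8 to 67.4 CPM. NASH-CH rat 6 had the lowest log2 ratio of Tgfb2 to Tgfb1, -1.74, while the other NASH-CH rats ran from -0.58 to 0.1. Without NASH-CH rat 6 that ratio was higher in NASH-CH by 0.58 than in control and by 0.85 than in NASH. That rat was picked for its low value of this same ratio, so leaving it out had to raise the NASH-CH mean. These 2 differences are therefore descriptions. With all rats they were 0.34 (exact permutation p = 0.307) and 0.61 (exact permutation p = 0.0974), neither adjusted for the 15 ratio tests.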

How the results depend on the processing

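Against control, Ltbp1 and Thbs1 stayed called higher in NASH-CH under all 12 alternatives (log2 fold changes from 1.01 to 1.53 and from 1.47 to 2.01), and Ltbp2 under 11 of 12, all but the 2 groups fitted alone. Scaling by library size only moved the median log2 fold change over all tested genes to 0.23 (NASH) and 0.27 (NASH-CH), and gave calls for 1 member in NASH (Tgfbr2), 5 in NASH-CH against control (adding Tgfb3 and Tgfbr2, the first of which was also called without a filter) and 1 in NASH-CH against NASH. Of the 9 members, 1 was called in NASH with the 2 groups fitted alone (Ltbp1) or with quality weights (Tgfbr2), and 1 in NASH-CH against NASH with the 2 groups alone, without small non-coding RNA genes or without NASH-CH rats 5 and 6. Without small non-coding RNA genes, adjusted p against NASH was 0.0626 for Ltbp1 and 0.0538 for Ltbp2. Where not given here, the cause of a change was not tested.

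Calls over all genes in NASH against control moved from 403 to 652 with edgeR's quasi-likelihood test, 1228 with DESeq2, 865 with library size only, 268 without a filter, 644 with 2 groups alone, 1509 with quality weights and 1014 without NASH-CH rats 5 and 6. In NASH-CH against control 2192 became 5495 without a filter and 1408 with 2 groups alone. In NASH-CH against NASH 542 became 949 with DESeq2, 2649 without a filter, 349 with 2 groups alone and 268 without small non-coding RNA genes. Leaving out 1 rat gave 128 to 982, 1519 to 2409 and 346 to 591 calls in the same order, and 0 to 0, 2 to 4 and 0 to 3 of the members. The NASH count moved by over 1.5 times without control rat 1, 3, 4, 5 or 6, NASH rat 1, 3, 4 or 5, or NASH-CH rat 5, and the count between the disease groups without NASH rat 3.

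Directions that turned belonged to values near 0 that did not pass. In NASH these were Ltbp2 with library size only (0.088), Tgfb3 with quality weights (-0.025), Col1a1 after thinning (-0.032) and Itgb8 with the replicate block (-0.013). In NASH-CH against control they were Tgfbr1 with library size only (0.078), Tgfb1 with quality weights (-0.055) and without NASH-CH rats 5 and 6 (-0.29), and Smad7 without both rats (-0.056). Against NASH they were Tgfbr2 with library size only (0.001), Smad7 with quality weights (-0.15), after thinning (-0.066) and without rats 5 and 6 (-0.18), and Zfyve9 without both (-0.031). Leaving out 1 rat turned Tgfb3 (-0.084 to 0.25), Ltbp2 (-0.28 to 0.0049), Col1a1 (-0.10 to 0.12) and Itgb8 (-0.19 to 0.17) in NASH, Tgfb1 (-0.091 to 0.26) in NASH-CH, and Tgfbr2 (-0.078 to 0.011), Smad7 (-0.13 to 0.12) and Zfyve9 (-0.022 to 0.17) against NASH.

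Rats of different groups share the numbers 1 to 6, but deviations of same-numbered rats correlated by -0.119 to 0.171, and nothing in the labels says that they were handled together. A replicate block gave 444, 2095 and 540 called genes, with 0, 3 and 3 members among them, and ended the calls of Bmpr2 in NASH (0.5, adjusted p = 0.0562) and of Bmp2 (-0.67, 0.0649) and Col3a1 (0.49, 0.0582) in NASH-CH against NASH, while Itgb8 gained one there (1.5, 0.00752). Under the pairing, the ratio of Tgfb3 to Tgfb1 in NASH-CH against control kept its difference of 0.67 with a sign-flip p of 0.0312, the smallest that 6 pairs allow, and that of Ltbp2 to Ltbp1 against NASH kept 0.94 with p = 0.0625, both exact permutation tests. Leaving out 1 rat moved the ratio differences as follows: Tgfb2 to Tgfb1 -0.40 to -0.14 (NASH), 0.21 to 0.58 (NASH-CH) and 0.48 to 0.85 (NASH-CH against NASH), Tgfb3 to Tgfb1 0.49 to 0.86 (NASH-CH), Tgfbr1 to Tgfbr2 -0.50 to -0.29 (NASH-CH), Smad7 to Tgfbr1 -0.12 to 0.17 (NASH) and Ltbp2 to Ltbp1 -0.69 to -0.47 (NASH). Low counts of Ltbp2, Tgfb1, Tgfb2, Itgb8, Pmepa1 and Grem1 limit the values of these genes.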
